A study of Mus musculus with 6 samples.

Results

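The PPAR and RXR nuclear receptors, the liver X receptor LXRα (Nr1h3), the C/EBP factors Cebpa and Cebpd and the Krüppel-like factor Klf15 are transcription factors of fat cell differentiation. These 10 genes were picked by symbol from the 24537 genes of the deposited expression table of brown adipocytes. They are Pparg, Ppara, Ppard, Rxra, Rxrb, Rxrg, Nr1h3, Cebpa, Cebpd and Klf15, and all 10 were measured. The study asked how a shortage of coenzyme Q (CoQ), an electron carrier of the mitochondrial respiratory chain, affects the thermogenic programme of brown fat. Expression was measured by mRNA sequencing in 6 libraries of an immortalized murine brown adipocyte line, 3 of cells given 4 mM 4CBA (4-chlorobenzoic acid, an inhibitor of the CoQ synthesis enzyme COQ2) and 3 of cells given vehicle (CTL).

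In both groups preadipocytes were differentiated for 6 days, and 4CBA or vehicle was added at day 4 for 48 h with fresh medium after 24 h, according to the sample labels. The deposited values are labelled 48 h as well. The study's RNA sequencing methods give 24 h of 4CBA in place of 48 h, and which of them these libraries hold was not settled here. By the study's cell culture methods the vehicle was DMSO and ethanol. The maintenance medium given to the cells from the end of induction held insulin, thyroid hormone and rosiglitazone, a synthetic ligand of PPARγ. All libraries come from 1 immortalized line, and replicates were pooled to make total RNA, so the spread behind the p-values is that between libraries and may be technical.

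PPARs bind DNA as heterodimers with RXRs at direct repeats of a short core sequence, and ligands such as fatty acids switch the dimer from repressing to activating its targets. In adipocytes PPARγ and C/EBPα sustain each other's expression and together bind most genes of the mature fat cell, after C/EBPβ and C/EBPδ have started the programme. PPARα is known in brown fat for genes of fatty acid oxidation, and LXRα, another partner of RXR, for genes of sterol export and lipid synthesis.

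Values are RPKM, in which reads are scaled for exon length and for sequencing depth, so levels can be compared between genes per length. The log2 fold changes are 4CBA minus CTL on log2(RPKM + 1), where the added 1 shrinks the change of low genes, and were tested with limma over the 12659 genes that reached 0.5 RPKM in 3 or more libraries. Higher or lower is called where the Benjamini-Hochberg adjusted p is under 0.05, and folds are ratios of mean RPKM. Estimated depth was 10760000 to 11520000 reads in 4CBA and 9380000 to 12200000 reads in CTL. Across genes, which are not independent replicates, the correlation of log2 values was 0.992 to 0.993 for libraries of 1 group and 0.911 to 0.917 for libraries of different groups. Markers of adipocytes were present in both groups, with a summed RPKM over the 8 genes of the list of 5546 to 6863 in 4CBA and 10850 to 11340 in CTL. Most of this sum was Fabp4, at a mean of 4846 RPKM in 4CBA and 8620 RPKM in CTL. Of the 8 genes, 6 were called lower, against 30% of all genes tested, and 2 were not called. Of the markers of macrophages, endothelium and skeletal muscle only Cd68, Acta1 and Mb (myoglobin) were high enough to test, and their part in the results was not tested. The 2 tested genes of the muscle list went opposite ways. Mb was called lower, at 0.590 ± 0.181 RPKM in 4CBA and 265 ± 11.1 RPKM in CTL (SD, n = 3 each). The actin gene Acta1 was called higher, at 4.43 ± 0.806 RPKM in 4CBA and 0.276 ± 0.0583 RPKM in CTL (SD, n = 3 each). The muscle genes Myod1, Myf5, Myog and Myh1 were at 0 in every library, as were the macrophage genes Adgre1 and Ptprc and the endothelial gene Cdh5.

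Pparg and Cebpa, the pair at the centre of the adipocyte programme, were both much lower with 4CBA, and so was Rxrg. Pparg was 2.78-fold, Cebpa 4.90-fold and Rxrg 7.35-fold lower (11.3-fold without 4CBA replicate 3), while Rxrb and Klf15 were 1.38-fold and 1.47-fold higher. Of the 10 factors, 7 were called lower, 2 were called higher and Ppara was not called, with a median log2 fold change of −0.31 against 0.063 over all genes tested. Among all genes tested 68.4% of genes were called, 30% lower and 38.4% higher, so that being called at all does not set these factors apart. A log2 fold change of 1 or more in size was called for 3 of the 10, against 11.5% of all genes. All 3 were lower, as were 6% of all genes. As the added 1 shrinks the change of low genes, some with a ratio of means above 2 are not counted here. The RPKM of both groups did not overlap for 8 of the 10, against 72.7% of all genes, 6 of them with 4CBA lower and 2 with 4CBA higher, against 31.8% and 40.9% of all genes. All 10 passed the filter on low values, of which Rxrg reached the minimum in only 1 of the 3 4CBA libraries.

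**Figure D1:**
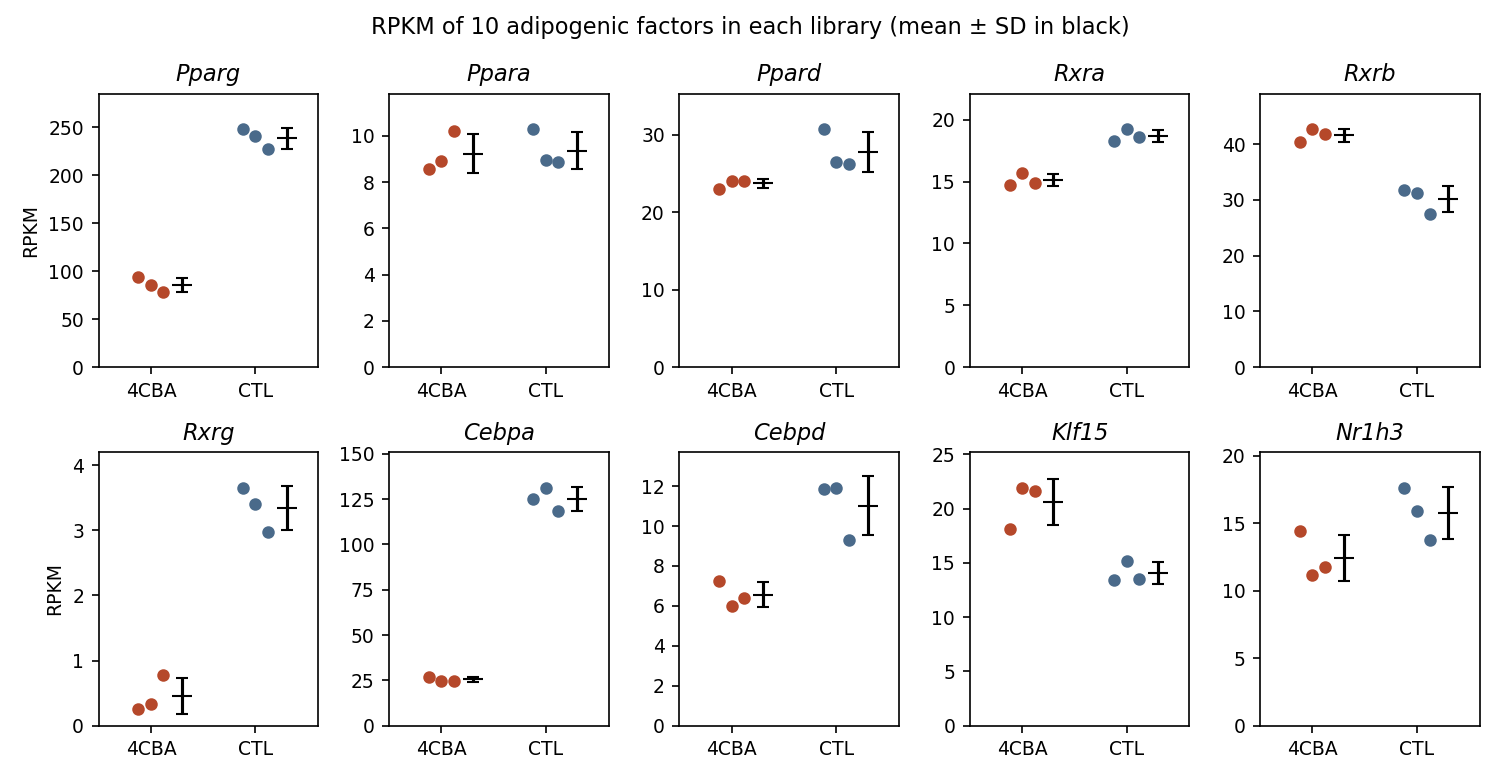
RPKM of each factor in the 3 4CBA libraries (left) and the 3 CTL libraries (right), each panel with its own linear axis from 0, with the mean and SD in black. Pparg, Cebpa and Rxrg sit far lower in 4CBA, Rxrb and Klf15 sit higher, and the points of Ppara and of Nr1h3 overlap.

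Pparg encodes PPARγ, the receptor that fat cells cannot form without. Its gene lies on chromosome 6 from 115360951 to 115490399 on the plus strand (GRCm38, as are all positions here). The 3 4CBA libraries had 93.6, 85.1 and 78.8 RPKM and the 3 CTL libraries 247.9, 240.4 and 226.9 RPKM. Every 4CBA library lay far below every CTL library, and the spread within a group was small beside the gap. The means were 85.8 ± 7.47 RPKM in 4CBA and 238 ± 10.7 RPKM in CTL (SD, n = 3 each), a log2 fold change of −1.47 ± 0.066 (SE, adjusted p = 3.02e-09 from limma). Even so, Pparg had the highest level of the 10 factors in both groups. In these bulk samples, fewer cells that express a gene and less RNA per cell cannot be told apart.

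The annotation gives Pparg several first exons, of which the downstream one starts the adipocyte-enriched form PPARγ2. The deposited RPKM counts reads over the exons of 1 RefSeq isoform, which starts at 115362292 in the annotation, whereas the PPARγ2 transcript starts at 115422066, so how the start sites shared the loss cannot be told apart. The promoter windows at these starts are shown as regions from which the changed transcript could begin. Another annotated start lies further upstream, at 115360951, and its window is not shown. Each RefSeq window (GRCm38.p6) holds 250 bases before a start and 50 from it on, and capitals mark the receptor core AGGTCA and the GC box GGGCGG, or their reverse complements.
Pparg upstream start, chr6:115362099-115362398, plus strand: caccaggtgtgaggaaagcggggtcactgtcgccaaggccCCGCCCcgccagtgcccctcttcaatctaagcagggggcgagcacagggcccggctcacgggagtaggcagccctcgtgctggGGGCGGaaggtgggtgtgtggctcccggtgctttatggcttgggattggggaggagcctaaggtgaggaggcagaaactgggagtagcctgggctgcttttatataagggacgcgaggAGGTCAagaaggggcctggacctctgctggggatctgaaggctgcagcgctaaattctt
Pparg downstream start, chr6:115421816-115422115, plus strand: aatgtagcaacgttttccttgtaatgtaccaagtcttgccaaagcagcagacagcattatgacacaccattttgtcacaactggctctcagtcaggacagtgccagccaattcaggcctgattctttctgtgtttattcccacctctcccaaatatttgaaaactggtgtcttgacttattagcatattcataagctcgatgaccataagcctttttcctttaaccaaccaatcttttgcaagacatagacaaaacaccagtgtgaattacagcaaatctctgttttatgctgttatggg
The upstream window is built on a RefSeq start at 115362349, which differs from the annotated 115362292. It holds 1 receptor core, at position −9 from that RefSeq start, and 2 GC boxes, whereas the downstream window holds neither. The Pparg window that is not shown holds 1 receptor core and 1 GC box.

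Ppara encodes PPARα, the fatty acid sensor of oxidative tissues, on chromosome 15 from 85734983 to 85802819. It had 8.56, 8.93 and 10.2 RPKM in the 4CBA libraries, against 10.3, 8.94 and 8.86 RPKM in the CTL libraries. The groups overlap almost fully. The means were 9.23 ± 0.855 RPKM in 4CBA and 9.36 ± 0.802 RPKM in CTL (SD, n = 3 each), and the log2 fold change of −0.019 ± 0.083 (SE) was not called (adjusted p = 0.852 from limma).

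Ppard encodes PPARδ, a broadly expressed receptor for fatty acids, on chromosome 17 from 28232700 to 28301474. Its levels were 23.0, 24.1 and 24.1 RPKM in the 4CBA libraries, against 30.7, 26.4 and 26.2 RPKM in the CTL libraries. The groups do not overlap, but CTL replicate 1 stands above the other 2 CTL libraries. Ppard averaged 23.7 ± 0.604 RPKM in 4CBA and 27.8 ± 2.56 RPKM in CTL (SD, n = 3 each), with a log2 fold change of −0.22 ± 0.067 (SE, adjusted p = 0.0137 from limma). Without CTL replicate 1 the call was lost, at −0.14 (adjusted p = 0.0645 from limma), and with libraries scaled to equal medians the value was −0.33.

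Summed over the 3 PPAR genes, the RPKM was 118.8 ± 6.12 in 4CBA and 275.5 ± 13.5 in CTL (SD, n = 3 each), 2.32-fold lower, and nearly all of the difference was Pparg. Pparg made up 74.8, 72.1 and 69.7% of the PPAR sum in the 4CBA libraries, against 85.8, 87.2 and 86.6% in the CTL libraries. Its mean share was 14.4 percentage points lower in 4CBA, at 72.2 ± 2.55% in 4CBA and 86.5 ± 0.689% in CTL (SD, n = 3 each). The share of Ppard was 20.03 ± 1.49% in 4CBA and 10.1 ± 0.53% in CTL, and that of Ppara was 7.80 ± 1.11% in 4CBA and 3.39 ± 0.16% in CTL (SD, n = 3 each). A share within a library does not depend on how libraries are scaled to each other. None of these shares overlapped between the groups, and each gave p = 0.1 in a two-sided exact permutation test (0.1 also after Benjamini-Hochberg adjustment over the 6 PPAR and RXR shares), the smallest p that 3 against 3 libraries allow.

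Rxra encodes RXRα, a partner that PPARs, LXRs and several other receptors need to bind DNA, on chromosome 2 from 27676440 to 27762957. It had 14.7, 15.7 and 14.9 RPKM in the 4CBA libraries, against 18.3, 19.2 and 18.6 RPKM in the CTL libraries. The groups are narrow and apart. The means were 15.1 ± 0.505 RPKM in 4CBA and 18.7 ± 0.489 RPKM in CTL (SD, n = 3 each), with a log2 fold change of −0.29 ± 0.057 (SE, adjusted p = 7.5e-04 from limma).

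Rxrb encodes RXRβ, an isotype found in most cell types, on chromosome 17 from 34031812 to 34038399, and it moved the other way. Its RPKM was 40.4, 42.7 and 41.7 in the 4CBA libraries, against 31.7, 31.2 and 27.4 in the CTL libraries. All 4CBA libraries lay above all CTL libraries. Rxrb averaged 41.6 ± 1.14 RPKM in 4CBA and 30.1 ± 2.34 RPKM in CTL (SD, n = 3 each), with a log2 fold change of 0.46 ± 0.063 (SE, adjusted p = 4.92e-05 from limma).

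Rxrg encodes RXRγ, the isotype with the narrowest range of tissues, on chromosome 1 from 167598384 to 167639623. It was the lowest of the 10 factors in both groups, at 0.260, 0.331 and 0.774 RPKM in the 4CBA libraries, against 3.66, 3.40 and 2.98 RPKM in the CTL libraries. By the estimated depth these are about 5 to 14 reads in 4CBA and 46 to 73 reads in CTL. The highest 4CBA library thus stayed well under the lowest CTL library, but the size of the fold rests on few reads and on 4CBA replicate 3, without which the 4CBA mean was 0.296 RPKM and the fold 11.3 in place of 7.35. Rxrg averaged 0.455 ± 0.279 RPKM in 4CBA and 3.35 ± 0.342 RPKM in CTL (SD, n = 3 each), with a log2 fold change of −1.59 ± 0.13 (SE, adjusted p = 6.89e-07 from limma), and with a pseudocount of 0.1 in place of 1 it was −2.74.

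The summed RPKM of the 3 RXR genes was 57.2 ± 1.66 in 4CBA and 52.2 ± 2.73 in CTL (SD, n = 3 each), 1.10 times as high in 4CBA, so the make-up moved more than the sum. Rxrb held 72.9, 72.7 and 72.7% of the RXR sum in the 4CBA libraries, against 59.1, 57.9 and 56.0% in the CTL libraries, a mean difference of 15.1 percentage points. The share of Rxra was 26.5 ± 0.402% in 4CBA and 35.9 ± 1.95% in CTL, and that of Rxrg was 0.794 ± 0.482% in 4CBA and 6.41 ± 0.376% in CTL (SD, n = 3 each). These shares did not overlap between the groups either (exact permutation p = 0.1 each).

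**Figure D2:**
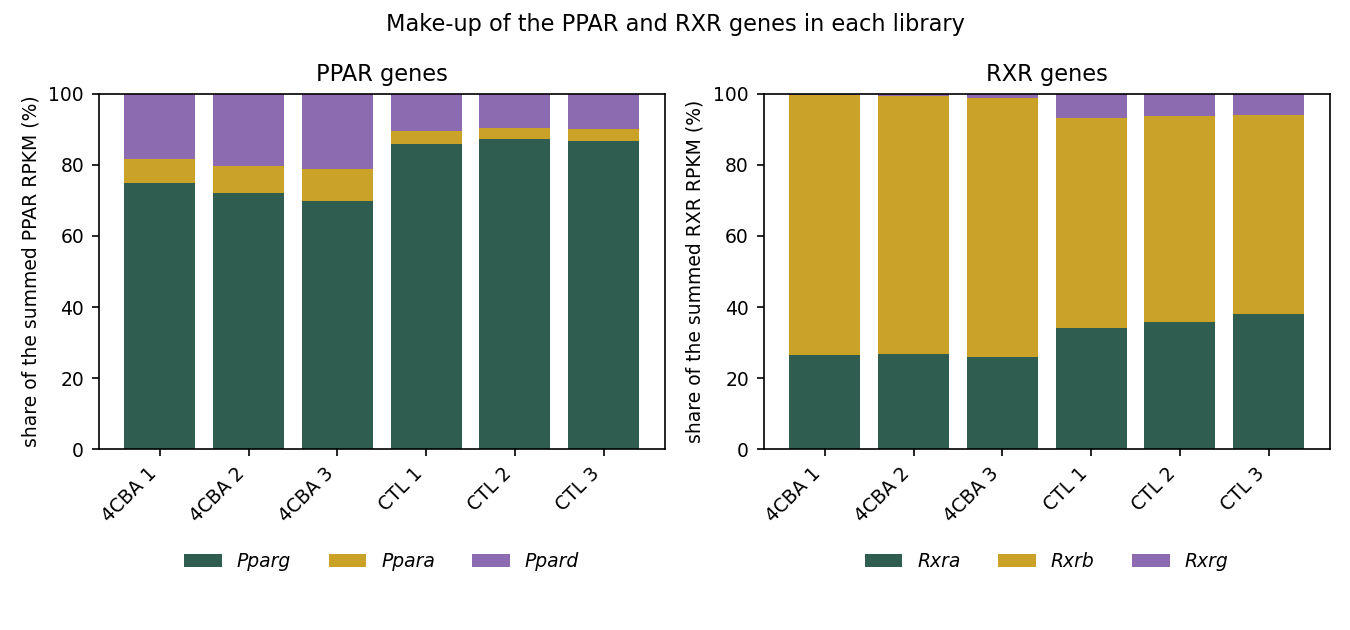
Share of each gene in the summed RPKM of the 3 PPAR genes (left) and the 3 RXR genes (right), in percent, 1 bar for each library, 4CBA before CTL. Pparg fills 69.7 to 74.8% of the PPAR bar in 4CBA and 85.8 to 87.2% in CTL, and Rxrb 72.7 to 72.9% of the RXR bar in 4CBA and 56.0 to 59.1% in CTL.

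Nr1h3 encodes LXRα, a receptor for oxysterols, on chromosome 2 from 91184061 to 91202834 on the minus strand. It had 14.4, 11.1 and 11.8 RPKM in the 4CBA libraries, against 17.6, 15.9 and 13.8 RPKM in the CTL libraries. The groups overlap, since 4CBA replicate 1 lies above CTL replicate 3. The means were 12.4 ± 1.73 RPKM in 4CBA and 15.8 ± 1.92 RPKM in CTL (SD, n = 3 each), and the log2 fold change of −0.32 ± 0.10 (SE) was called at an adjusted p of 0.018 from limma. The call was lost without 4CBA replicate 2, 4CBA replicate 3, CTL replicate 1 or CTL replicate 2 (adjusted p = 0.0688, 0.0693, 0.072 and 0.0566 from limma, in that order).

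Cebpa encodes C/EBPα, which holds the mature adipocyte programme together with PPARγ, on chromosome 7 from 35119293 to 35121928. The 4CBA libraries had 27.1, 24.7 and 24.8 RPKM and the CTL libraries 125.3, 131.3 and 118.6 RPKM. No 4CBA library came near a CTL library, and on the scale used this was the largest log2 fold change among the 10 factors, although Rxrg exceeded it as a ratio of means and with a pseudocount of 0.1. Cebpa averaged 25.5 ± 1.37 RPKM in 4CBA and 125 ± 6.39 RPKM in CTL (SD, n = 3 each), a log2 fold change of −2.25 ± 0.059 (SE, adjusted p = 3.69e-11 from limma). An antisense gene, Gm45091, shares 51 exon bases with Cebpa, and the use of strand in counting is not stated. The RefSeq window at its start, where C/EBP factors are known to act on their own gene, is shown for the factor with the largest log2 fold change on the scale used.
Cebpa, chr7:35119043-35119342, plus strand: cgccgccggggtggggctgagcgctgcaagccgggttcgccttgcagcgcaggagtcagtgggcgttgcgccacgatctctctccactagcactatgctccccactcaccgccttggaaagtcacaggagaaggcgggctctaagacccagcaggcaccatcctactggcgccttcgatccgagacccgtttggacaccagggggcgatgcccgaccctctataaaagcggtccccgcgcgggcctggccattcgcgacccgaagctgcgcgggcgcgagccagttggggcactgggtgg
None of the motifs searched (the receptor core, its direct repeat, the C/EBP site TTGCNNCAA, the C/EBP-ATF site TGATGCAA and the GC box) has an exact match in it, which says only that these letters are not in this window. Only the direct repeat was also searched with 1 mismatch, so a near match to the C/EBP site would not be marked.

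Cebpd encodes C/EBPδ, an early factor that acts before PPARγ in differentiation, on chromosome 16 from 15887286 to 15891031. It had 7.24, 6.02 and 6.40 RPKM in the 4CBA libraries, against 11.9, 11.9 and 9.30 RPKM in the CTL libraries. The groups do not overlap, with CTL replicate 3 the nearest to the 4CBA libraries. The means were 6.55 ± 0.623 RPKM in 4CBA and 11.0 ± 1.496 RPKM in CTL (SD, n = 3 each), with a log2 fold change of −0.67 ± 0.098 (SE, adjusted p = 8.56e-05 from limma). The gene Spidr on the opposite strand shares 562 exon bases with Cebpd, and without the strand their reads cannot be told apart.

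Cebpb, the other early C/EBP factor, was taken from the list of other pro-adipogenic factors for comparison. It had 74.3, 73.5 and 84.2 RPKM in the 4CBA libraries, against 53.8, 57.1 and 53.0 RPKM in the CTL libraries, and was called higher (log2 fold change 0.49 ± 0.062 SE, adjusted p = 2.39e-05 from limma). The balance of both factors within a library therefore lay on opposite sides of 1. The RPKM of Cebpb was 2.74, 2.98 and 3.39 times that of Cebpa in the 4CBA libraries, against 0.430, 0.435 and 0.447 times in the CTL libraries.

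Klf15 encodes a Krüppel-like factor that glucocorticoids induce and that promotes adipogenesis and expression of the glucose transporter gene Slc2a4, on chromosome 6 from 90462576 to 90475238. It had 18.2, 21.9 and 21.7 RPKM in the 4CBA libraries, against 13.4, 15.2 and 13.5 RPKM in the CTL libraries. Every 4CBA library was above every CTL library. Klf15 averaged 20.6 ± 2.11 RPKM in 4CBA and 14.0 ± 1.02 RPKM in CTL (SD, n = 3 each), with a log2 fold change of 0.52 ± 0.080 (SE, adjusted p = 1.16e-04 from limma). Its RefSeq window is shown beside that of Cebpa because Klf15 moved the other way.
Klf15, chr6:90462326-90462625, plus strand: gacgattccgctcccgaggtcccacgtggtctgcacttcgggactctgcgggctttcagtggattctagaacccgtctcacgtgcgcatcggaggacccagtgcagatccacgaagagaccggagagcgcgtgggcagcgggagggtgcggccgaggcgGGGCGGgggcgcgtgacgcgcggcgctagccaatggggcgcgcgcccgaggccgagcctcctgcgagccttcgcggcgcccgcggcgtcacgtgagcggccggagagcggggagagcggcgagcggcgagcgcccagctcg
It holds 1 GC box, at position −91 from the start, and no match to the other motifs.

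Windows were found for 9 of the 10 factors, 15 in all, and Cebpd had none. The receptor core AGGTCA was in 4 of the 15 (both upstream Pparg windows and 1 window each of Rxra and Rxrg), against 16.26% of the 32851 windows of all genes. The GC box was in 8 of the 15, against 35.66%. The direct repeat of the core with 1 base between, the element that PPAR and RXR dimers bind, was in 0 of the 15 both as an exact match and with 1 mismatch, against 0.04% and 0.55%. The C/EBP site TTGCNNCAA and the composite TGATGCAA were in 0 of the 15 as well, against 2.08% and 0.89%. Both strands were searched, each match within the direct repeat would also count as a core, and a match is a description of the sequence, not a site of binding.

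**Figure D3:**
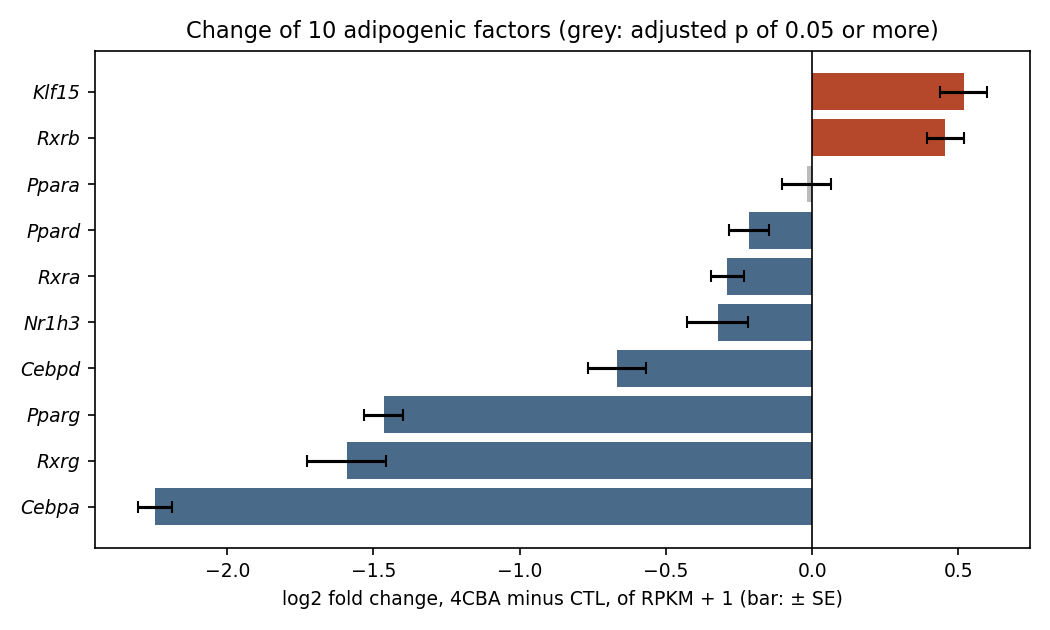
Log2 fold change of each factor (4CBA minus CTL, on RPKM + 1) with its standard error, ordered by size, blue where called lower, red where called higher and grey where not called. The values run from −2.25 for Cebpa to 0.52 for Klf15, and Ppara is near 0.

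The order of the factors by level differed between the groups. In 4CBA it ran from Pparg through Rxrb, Cebpa, Ppard, Klf15, Rxra, Nr1h3, Ppara and Cebpd to Rxrg, and no neighbours in that order overlapped. In CTL it ran from Pparg through Cebpa, Rxrb, Ppard, Rxra, Nr1h3, Klf15, Cebpd and Ppara to Rxrg, where Rxrb and Ppard, Nr1h3 and Klf15, and Cebpd and Ppara overlapped. Cebpa thus stood second in CTL but below Rxrb in 4CBA, and Klf15 stood above Rxra in 4CBA but below it in CTL.

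The genes whose profile over the 6 libraries lay nearest to that of Pparg were Atp5o and Sdhb, which encode subunits of the mitochondrial ATP synthase and of succinate dehydrogenase, and the integrin gene Itga1. Likeness was the mean absolute difference, over the libraries, of the log2 values after each gene's CTL mean was subtracted, and it was 0.029 for Atp5o, 0.037 for Itga1 and 0.044 for Sdhb among 9221 genes. Itga1 was low, at a mean of 2.98 RPKM in 4CBA and 9.77 RPKM in CTL, where the added 1 shrinks the change. For Cebpa the nearest were Sdpr, a gene of caveolae, Uqcr11, of respiratory complex III, and Idh1, cytosolic isocitrate dehydrogenase, at 0.050, 0.053 and 0.058. A log2 fold change within 0.1 of that of Pparg was shared by 93 genes and within 0.1 of that of Cebpa by 28.

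Known targets of PPARγ in adipocytes mostly fell, but a few rose. Of 26 tested, 15 were called lower, 4 higher and 7 were not called, with a median log2 fold change of −0.73. For this list and those below, the shares over all genes tested were 30% called lower and 38.4% called higher. Cfd, the secreted protease adipsin, was at 5.36 ± 0.660 RPKM in 4CBA and 152 ± 7.64 RPKM in CTL, and Ucp1, the uncoupling protein of brown fat, was at 2.13 ± 0.231 RPKM in 4CBA and 34.6 ± 3.76 RPKM in CTL (SD, n = 3 each). Plin1, which coats the lipid droplets of adipocytes, had a log2 fold change of −1.39 and the fatty acid carrier gene Fabp4 one of −0.84. In the other direction Angptl4, a secreted inhibitor of lipoprotein lipase, was at 345 ± 17.1 RPKM in 4CBA and 75.4 ± 5.66 RPKM in CTL, and Plin2, a lipid droplet coat protein of many cell types, at 708 ± 33.8 RPKM in 4CBA and 258 ± 7.82 RPKM in CTL (SD, n = 3 each). Cd36, the fatty acid receptor, had a log2 fold change of 0.17 (adjusted p = 0.0254 from limma). The list holds all 8 adipocyte markers tested and 2 of the brown adipocyte markers, Cidea and Ucp1, so it is no separate reading from them. The summed RPKM of the brown adipocyte markers was 153 to 171 in 4CBA and 1037 to 1098 in CTL, and 7 of the 8 tested were called lower, while Elovl3, a fatty acid elongase gene, was called higher.

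Targets of PPARα and PPARδ moved both ways. Of 17 tested of 23, 10 were called lower, 6 higher and 1 was not called, with a median log2 fold change of −0.49, or −0.16 with no filter on low values. Acot2, a mitochondrial acyl-CoA thioesterase, was at 69.1 ± 2.37 RPKM in 4CBA and 10.1 ± 0.953 RPKM in CTL, and Pdk4, a kinase that inhibits pyruvate dehydrogenase, was at 85.9 ± 4.47 RPKM in 4CBA and 31.9 ± 1.08 RPKM in CTL (SD, n = 3 each). The mitochondrial β-oxidation genes Acadm and Hadhb went down by log2 fold changes of −2.12 and −1.79.

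Of 13 LXR targets tested, 7 were called lower, 4 higher and 2 were not called, with a median log2 fold change of −0.43, or −0.12 with no filter on low values. The sterol exporters Abca1 and Abcg1 had log2 fold changes of −1.13 and −1.55, and Srebf1, a regulator of lipid synthesis genes, had −0.62. The phospholipid genes Pltp and Lpcat3 were called higher, at 0.63 and 0.59.

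Targets of C/EBP factors and KLF15 had the lowest median of these lists, −1.69 over 16 tested, with 13 called lower, 1 higher and 2 not called. Retn, which encodes the secreted protein resistin, was at 3.22 ± 0.768 RPKM in 4CBA and 265 ± 6.97 RPKM in CTL, and the acute-phase gene Orm1 was at 1.09 ± 0.435 RPKM in 4CBA and 60.0 ± 5.93 RPKM in CTL (SD, n = 3 each). Slc2a4, which encodes the insulin-responsive glucose transporter and is a known target of both C/EBPα and KLF15, was at 19.98 ± 0.399 RPKM in 4CBA and 93.6 ± 4.66 RPKM in CTL (SD, n = 3 each). Lep, the leptin gene, was listed at 0 in all 3 4CBA libraries and at 5.24, 4.23 and 4.58 RPKM in the CTL libraries, and without it the median over the other 15 was −1.21. Hp and Gys2, also called lower, averaged 0.314 and 0.217 RPKM in 4CBA, against 15.1 and 1.82 RPKM in CTL. Their 4CBA means lie under the 0.5 RPKM of the filter, and both medians include them. Insr, the insulin receptor gene, was the only gene of the list called higher, at 0.39. The 2 not called were Bcat2 and Prodh, at 0.14 and 0.16. Targets of C/EBP factors and of KLF15 stand together here, so the median is not a reading of either alone. Adipoq, Cfd and Slc2a4 also stand in the PPARγ list.

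**Figure D4:**
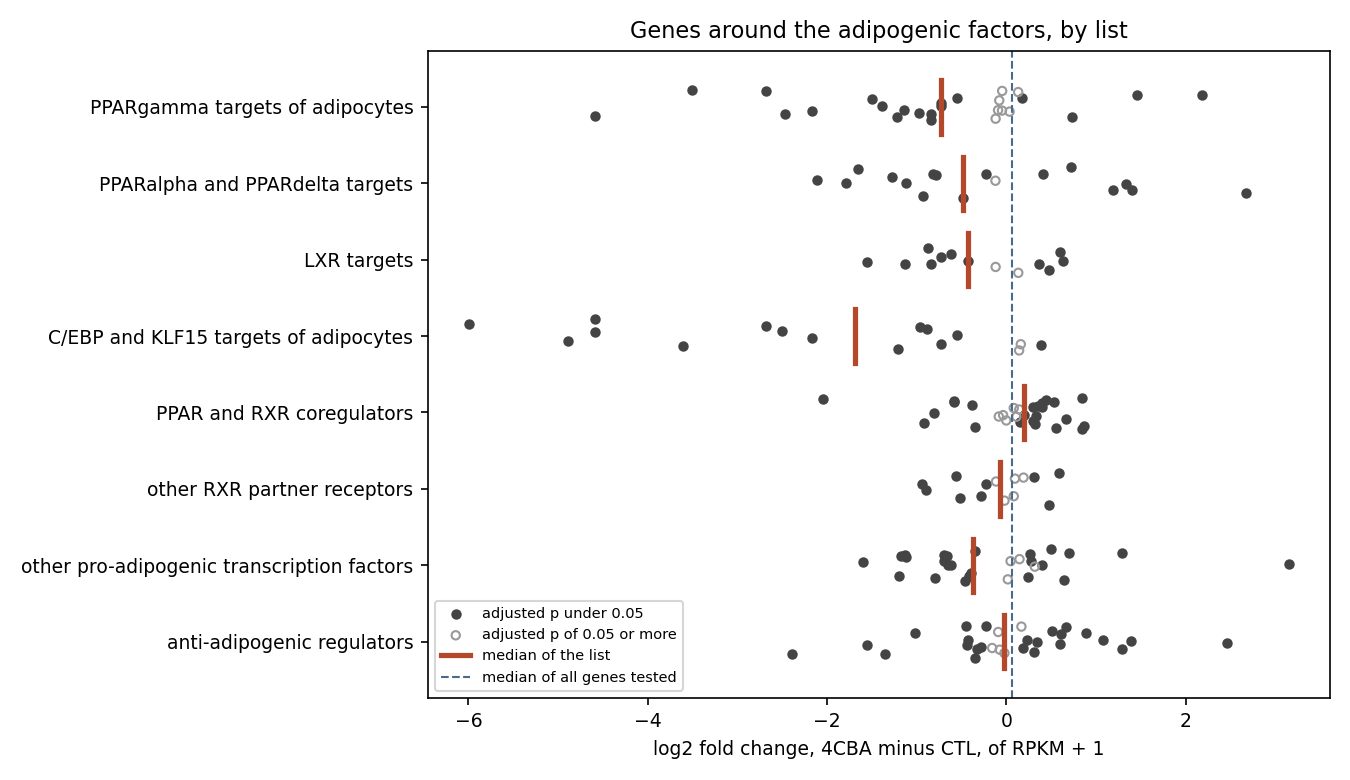
Log2 fold change (4CBA minus CTL, on RPKM + 1) of each tested gene in 8 lists around the factors, filled where called and open where not, with the list's median as a red bar and the median of all genes tested, 0.063, as a dashed line. The C/EBP and KLF15 targets lie lowest, with a median of −1.69, and the coregulators lie to the right of the dashed line, with a median of 0.20.

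Of 29 tested coregulators that PPAR and RXR dimers recruit, 16 were called higher, 7 lower and 6 were not called, with a median log2 fold change of 0.20, or 0.10 with libraries scaled to equal medians. Among those lower were coactivators known from brown fat. Ppargc1a (PGC-1α) was at 5.87 ± 0.643 RPKM in 4CBA and 11.0 ± 1.33 RPKM in CTL, and Ppargc1b (PGC-1β) at 1.44 ± 0.0690 RPKM in 4CBA and 9.13 ± 1.26 RPKM in CTL (SD, n = 3 each). Cited2, a transcriptional coregulator, was also called lower, at −0.91. The corepressor gene Nrip1 was called higher at 0.20 (adjusted p = 0.0448 from limma), and Lpin2 and Tbl1x at 0.87 and 0.85.

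The other receptors that pair with RXRs changed in both directions, with 3 of 14 called higher, 6 lower and 5 not called, and a median log2 fold change of −0.069, or −0.15 with libraries scaled to equal medians and −0.12 with a pseudocount of 0.1. Nr1h2 (LXRβ), the paralog of Nr1h3, was at 37.7 ± 1.09 RPKM in 4CBA and 30.4 ± 3.51 RPKM in CTL (SD, n = 3 each) and was called higher at 0.31 (adjusted p = 0.00279 from limma). Thra, the thyroid hormone receptor gene, and Rara, a retinoic acid receptor gene, had log2 fold changes of −0.56 and −0.90, and Vdr, the vitamin D receptor gene, had −0.95. Rarg and the orphan receptor gene Nr2c1 were called higher, at 0.47 and 0.58.

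Among 28 other pro-adipogenic transcription factors, 15 were called lower, 9 higher and 4 were not called, with a median log2 fold change of −0.37, or −0.24 in the authors' log2 values. Stat5a and Ebf1 had log2 fold changes of −0.65 and −0.80, and Egr2 and Hlf −1.60 and −1.20. Klf4, a Krüppel-like factor known from the first hours of differentiation, was at 17.9 ± 1.19 RPKM in 4CBA and 1.17 ± 0.467 RPKM in CTL (SD, n = 3 each), and Klf11 was called higher at 1.29. Of 29 genes known to oppose adipogenesis, 13 were called higher, 11 lower and 5 were not called. Among all genes tested 38.4% were called higher and 30% lower. The median of the list was −0.023, or −0.14 with libraries scaled to equal medians and 0.022 without 4CBA replicate 1. Ddit3, which encodes CHOP, a C/EBP relative that dimerizes with C/EBP factors and blocks their binding to DNA, was at 452 ± 6.79 RPKM in 4CBA and 172 ± 15.1 RPKM in CTL, and Trib3, a pseudokinase gene, was at 260 ± 10.4 RPKM in 4CBA and 46.6 ± 5.44 RPKM in CTL (SD, n = 3 each). Gata2, which restrains preadipocytes, was called higher at 0.67. Dlk1, the preadipocyte factor, and Trib2 were called lower, at −2.40 and −1.56.

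Markers of preadipocytes and fibroblasts were lower with 4CBA as well. Their summed RPKM was 52.0 to 55.7 in 4CBA and 295 to 335 in CTL, and 7 of the 8 tested were called lower and 1 was not called, among them Pdgfra (−1.73) and Col1a1 (−3.90). Cd68, a glycoprotein of lysosomal membranes, was the only macrophage marker that could be tested and was called higher, at 49.2 ± 2.85 RPKM in 4CBA and 2.28 ± 0.637 RPKM in CTL (SD, n = 3 each), while Adgre1, Ptprc and Itgam were at 0 in every library.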

How the data were processed

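Messenger RNA was measured in 6 libraries, 3 per group, with groups and replicate numbers from the sample labels. The authors mapped reads to mm10 with STAR, counted them over the exons of 1 RefSeq isoform per gene with HOMER and deposited RPKM values. They also deposited log2 values and the p-values and fold changes of their DESeq2 comparison, which were not used. Versions of these tools, and use of strand in counting, are not stated in the sources at hand. The log2 values rest on another isoform for 5 of the 10 factors (Pparg, Ppara, Rxra, Rxrb and Nr1h3).

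The planned comparison by the study is a count test. As RPKM are not counts, limma 3.58.1 in R 4.3.3 (trend and robust estimation) was run on log2(RPKM + 1) for the 12659 genes that reached an RPKM of 0.5 in 3 libraries, with Benjamini-Hochberg adjustment over them, and the procedure was tested on simulated data. Low RPKM values move in steps of 1 read, which gave the estimate of depth. No set test was run. The factors, gene lists and motifs were chosen with earlier results of these data known. Named were all 10 factors, the core genes and the 2 largest changes in each direction of each list, where the mean RPKM of the higher group was 1 or more, and the 3 nearest profiles for Pparg and Cebpa among genes averaging 5 RPKM or more in 1 group. Some genes that this rule picks are not reported here. Other markers were named after their values were seen. Promoter windows are from RefSeq (GRCm38.p6) and positions from GENCODE vM21. Python 3.11.15 with pandas 2.3.3 and numpy 2.4.6 was used for tables. Alternatives tried were no filter, a pseudocount of 0.1, the replicate number as a block, each library left out, libraries scaled to equal medians, the authors' log2 values and no robust estimation.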

Additional observations from a re-analysis of the deposited data

How the results depend on the processing

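Under 12 alternatives, Pparg, Rxra, Rxrb, Rxrg, Cebpa, Cebpd and Klf15 kept their direction and their call, with log2 fold changes from −1.58 to −1.41, −0.40 to −0.27, 0.34 to 0.49, −2.74 to −1.37, −2.36 to −2.21, −0.77 to −0.61 and 0.41 to 0.60, in that order. Ppara was never called and lay between −0.085 and 0.044 with 1 library left out. Ppard lost its call in 1 alternative and Nr1h3 in 4, all with 1 library left out. The count of genes called ran from 8109 to 8982 around 8664. With libraries scaled to equal medians the median of all genes was −0.036 in place of 0.063, and 45.7% of calls were higher (3950 higher, 4693 lower) against 56.1% in the values reported (4860 higher, 3804 lower), with direction and call of all 10 factors kept.

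The medians of the lists moved as well. Scaling to equal medians gave −0.84 for PPARγ targets, −0.60 for PPARα and PPARδ targets, −0.53 for LXR targets, −1.77 for C/EBP and KLF15 targets, 0.10 for coregulators, −0.15 for other RXR partners, −0.47 for pro-adipogenic factors and −0.14 for anti-adipogenic regulators. The authors' log2 values gave −0.49 for LXR targets, −1.76 for C/EBP and KLF15 targets, 0.15 for coregulators, −0.086 for RXR partners, −0.24 for pro-adipogenic and −0.088 for anti-adipogenic genes. A pseudocount of 0.1 gave −0.49 for LXR targets, −2.42 for C/EBP and KLF15 targets, −0.12 for RXR partners and −0.42 for pro-adipogenic factors. Without the filter, where more low genes enter, the medians were −0.16 for PPARα and PPARδ targets, −0.12 for LXR targets, −1.21 for C/EBP and KLF15 targets and −0.34 for pro-adipogenic factors. With 1 library left out the medians ran from −0.55 to −0.41 for PPARα and PPARδ targets, −0.092 to −0.044 for RXR partners, −0.39 to −0.34 for pro-adipogenic factors and −0.061 to 0.022 for anti-adipogenic regulators, the last turning positive without 4CBA replicate 1. Scaling to equal medians moved the median of all genes tested as well, from 0.063 to −0.036. The cause of the shifts was not tested.

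Libraries that share a replicate number deviated from their group means with r of −0.067, −0.033 and −0.027 across genes, so no shared deviation was seen. These values cannot tell whether libraries of the same number come from the same experiment. With the replicate number as a block 8499 genes were called, with direction and call of all 10 factors kept. With 3 libraries per group, the shares of PPAR and RXR genes cannot pass the threshold in an exact test, and Rxrg is limited by its few reads.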
